A study of Ovis aries with 9 samples.

Results

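Levels of 7 genes of progesterone synthesis and of the corpus luteum were followed in the ovaries of 9 ewes by RNA-Seq. The genes were SCARB1, STAR, CYP11A1, FDX1, FDXR, HSD3B1 and OXT, chosen by name for their roles, and they are 7 of the 27174 rows of the count table. Each gene had a row under its own symbol, and all 7 passed the filter on low counts that left 16871 genes for testing. The ewes were 3 adult Dorset sheep (animals D4, D5 and D6, labelled wild type), 3 adult Small Tail Han sheep of genotype FecBBFecBB (Han BB, animals W1, W2 and W4) and 3 adult Small Tail Han sheep of genotype FecB+ FecB+ (Han ++, animals W6, W7 and W8). FecB is a mutation that raises the ovulation rate in sheep, and the Dorset ewes served as the group of low fecundity. All 3 groups came from 1 farm and had estrus synchronized with a progestagen sponge and PMSG. Their ovaries were taken in a window of hours after the following spontaneous estrus was detected. The time of each ewe within that window, and its part in the spread between ewes, was not tested. Each library was made from ovary tissue, so follicles, stroma, vessels and any luteal tissue in it were measured together. By the methods, whole ovaries were removed and samples were collected with regard to ovulation points. They do not say whether a part or the whole of an ovary was used. The number of ovulation points or corpora lutea in each ewe was not analysed here. Breed and FecB genotype differ together between Han BB and Dorset, whereas Han BB and Han ++ share the breed.

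After ovulation, the cells that lined the follicle become the corpus luteum, the gland that makes progesterone in the second part of the ovarian cycle. Cholesterol enters these cells from lipoproteins, is carried to the inner mitochondrial membrane, loses its side chain there to give pregnenolone, and is turned into progesterone by a dehydrogenase. The side chain cleavage needs electrons that pass from NADPH through a reductase to a small iron-sulfur protein and then to the enzyme. In sheep and other ruminants the large luteal cells also make oxytocin, which takes part in the dialogue with the uterus that ends the life of the corpus luteum.

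Between 10803913 and 20992535 reads were counted per library. W4 (Han BB) and D6 (Dorset) stood together at 1 end of the first principal component of all genes, which took up 41.3% of the variance, with the Dorset library D4 at the other end. A single row, LOC101101865, held 14.9% of all reads in D4, 7.69% in W8 and 3.79% in W2 but 0.0681% in W4 and 0.0107% in D6. The other 4 libraries held 2.28% (W6), 2.15% (D5), 0.258% (W1) and 0.237% (W7). D4, W2 and W8 were also the 3 libraries with the highest CYP11A1 and OXT, and the part that this gradient played in the results was not tested. Expression is given as CPM, reads scaled to a common library total with TMM factors. Because mixed ovary tissue was sequenced, a lower level of a gene can mean fewer cells in the sample that express it or less RNA per cell, and these cannot be told apart. Nothing in the sources says whether 1 ovary or both were used, and each ewe gave 1 library, so every p value rests on the spread between ewes.

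The supply of cholesterol was represented by SCARB1, the receptor that takes up cholesterol esters from high density lipoprotein. SCARB1 stood at 119, 79.9 and 48.4 CPM in the Dorset ewes D4, D5 and D6, at 41.8, 107 and 45.2 CPM in the Han BB ewes W1, W2 and W4, and at 34.8, 54.7 and 80.6 CPM in the Han ++ ewes W6, W7 and W8. Each group held a ewe above 80 CPM and a ewe below 50 CPM, and the groups overlapped. The means were 82.5 ± 35.5 CPM for Dorset, 64.8 ± 36.9 CPM for Han BB and 56.7 ± 23.0 CPM for Han ++ (SD, n = 3 each). On the log2 scale the difference from Dorset was -0.35 in Han BB (SE 0.46) and -0.54 in Han ++ (SE 0.46). Without D4 these were 0.0099 and -0.19.

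STAR encodes the steroidogenic acute regulatory protein, which moves cholesterol to the inner mitochondrial membrane and sets the pace of steroid synthesis. STAR was at 146, 19.7 and 128 CPM in D4, D5 and D6, at 135, 161 and 167 CPM in W1, W2 and W4, and at 213, 187 and 47.4 CPM in W6, W7 and W8. The 3 Han BB ewes lay close together, whereas the Dorset ewe D5 and the Han ++ ewe W8 were far below the other 7 ewes. The means were 97.9 ± 68.3 CPM for Dorset, 155 ± 17.1 CPM for Han BB and 149 ± 88.9 CPM for Han ++ (SD, n = 3 each). The log2 difference from Dorset was 0.66 in Han BB (SE 0.66) and 0.61 in Han ++ (SE 0.66), and D5 carried most of it. Without D5 these differences were 0.18 and 0.13.

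CYP11A1 is the side chain cleavage enzyme, which makes pregnenolone from cholesterol. CYP11A1 was at 493, 125 and 143 CPM in the Dorset ewes, at 111, 437 and 73.6 CPM in the Han BB ewes, and at 162, 197 and 338 CPM in the Han ++ ewes, each in the order of animals used above. D4, W2 and W8 were the highest ewe of their groups, and the lowest of all was W4. The means of 254 ± 207, 207 ± 200 and 232 ± 93.2 CPM for Dorset, Han BB and Han ++ (SD, n = 3 each) were closer to each other than the ewes within any group. The log2 difference was -0.29 between Han BB and Dorset (SE 0.69) and -0.13 between Han ++ and Dorset (SE 0.69), and both turned positive, to 0.62 and 0.79, without D4. Without W2 the difference between Han BB and Dorset was -1.44 with an unadjusted p = 0.0411 and an adjusted p = 0.832 in edgeR's quasi-likelihood test.

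FDX1 and FDXR encode ferredoxin 1 and ferredoxin reductase, the electron carriers of CYP11A1. FDX1 stood at 83.2, 27.5 and 85.2 CPM in the Dorset ewes, at 36.7, 37.5 and 106 CPM in the Han BB ewes and at 30.6, 35.1 and 36.9 CPM in the Han ++ ewes. D4, D6 and W4 were above 80 CPM, and the other 6 ewes were below 40 CPM. The means were 65.3 ± 32.7 CPM for Dorset, 60.1 ± 39.7 CPM for Han BB and 34.2 ± 3.26 CPM for Han ++ (SD, n = 3 each). FDX1 had the lowest unadjusted p of the 7 genes, for Han ++ against Dorset, with a log2 difference of -0.93 (SE 0.49, unadjusted p = 0.0857 and adjusted p = 0.997, edgeR). D5 was below all 3 Han ++ ewes, and without D5 the difference was -1.30 (unadjusted p = 0.0191, adjusted p = 1.00, edgeR). Between Han BB and Han ++ it was 0.81 (SE 0.49), and 0.11 without W4.

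FDXR was at 25.7, 24.4 and 13.7 CPM in the Dorset ewes, at 21.7, 27.6 and 9.77 CPM in the Han BB ewes and at 19.7, 23.3 and 32.7 CPM in the Han ++ ewes. D6 and W4 were the lowest of the 9 ewes in FDXR and the highest in FDX1. The means of 21.3 ± 6.56, 19.7 ± 9.09 and 25.2 ± 6.74 CPM for Dorset, Han BB and Han ++ (SD, n = 3 each) differed by less than the spread within the groups. The log2 difference from Dorset was -0.11 in Han BB (SE 0.41) and 0.24 in Han ++ (SE 0.40). The latter was 0.0043 without D6 and 0.39 without D4, and the former 0.20 without W4.

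HSD3B1 turns pregnenolone into progesterone, the last step of the pathway. HSD3B1 was at 98.1, 29.4 and 14.7 CPM in the Dorset ewes, at 31.6, 35.5 and 23.7 CPM in the Han BB ewes and at 20.2, 35.6 and 22.7 CPM in the Han ++ ewes. D4 stood alone, and the other 8 ewes lay between 14.7 and 35.6 CPM. The means were 47.4 ± 44.5 CPM for Dorset, 30.3 ± 6.02 CPM for Han BB and 26.2 ± 8.31 CPM for Han ++ (SD, n = 3 each). The log2 difference from Dorset was -0.64 in Han BB (SE 0.56) and -0.85 in Han ++ (SE 0.57), and without D4 it turned to 0.45 and 0.24. Without W4 and D6 the difference between Han ++ and Dorset was -1.26 (unadjusted p = 0.0142, adjusted p = 0.409, edgeR), a comparison in which D4 was 1 of the 2 Dorset ewes.

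OXT encodes the precursor of oxytocin and its carrier neurophysin. OXT had 8036 reads in D4 but 42 in D5 and 889 in D6, or 782, 1.89 and 49.7 CPM. The Han BB ewes W1, W2 and W4 stood at 192, 721 and 9.57 CPM, the last of these from 143 reads. The Han ++ ewes W6, W7 and W8 stood at 267, 566 and 716 CPM. No Han ++ ewe was below 267 CPM, while Dorset held both the highest and the lowest of the 9 ewes, and Han BB the second highest and the second lowest. The means were 278 ± 437 CPM for Dorset, 307 ± 369 CPM for Han BB and 516 ± 228 CPM for Han ++ (SD, n = 3 each).

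The fitted differences of OXT had the widest intervals of the 7 genes. The log2 difference was 0.15 between Han BB and Dorset (SE 1.53, 95% interval -3.22 to 3.51) and 0.90 between Han ++ and Dorset (SE 1.54, 95% interval -2.49 to 4.28). It was -0.75 between Han BB and Han ++ (SE 1.53, 95% interval -4.13 to 2.63), and ran from -2.35 without W2 to -0.18 without W4. D4 decided the size of both differences from Dorset. Without D4 they were 3.57 (unadjusted p = 0.0468, adjusted p = 0.673) and 4.32 (unadjusted p = 0.0249, adjusted p = 0.527) in edgeR's test, with D5 and D6 as the remaining Dorset ewes. limma voom with sample quality weights put both differences from Dorset at 4.46 (Han BB) and 5.35 (Han ++), with adjusted p = 0.339 and 0.210. It gave D4 and D6 weights of 0.465 and 0.464 and D5 a weight of 1.17. The ewe lowest in OXT within Han BB, W4, had the lowest weight of all, 0.293. The Han BB ewes W1 and W2 had weights of 2.19 and 1.29. Weights of the Han ++ ewes W6, W7 and W8 were 2.12, 1.76 and 1.29.

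**Figure D1:**
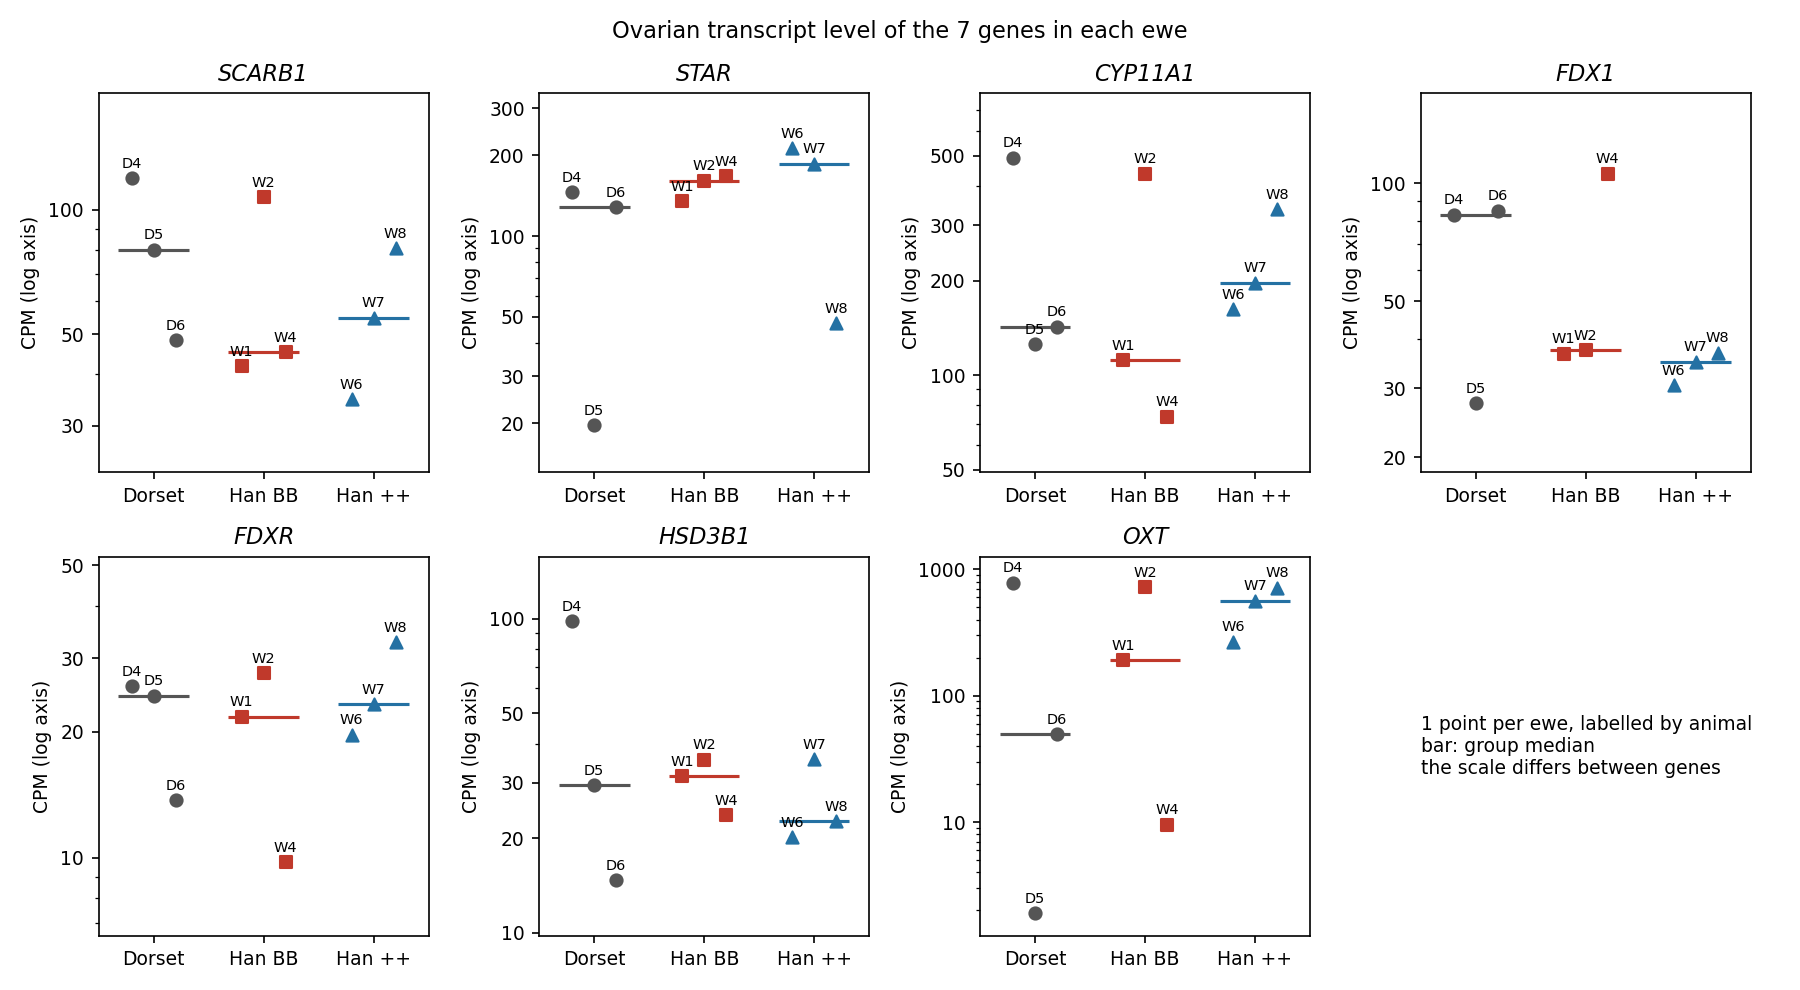
CPM of the 7 genes on log axes, with 1 point per ewe and a bar at the median of each group (Dorset, Han BB and Han ++, n = 3 each). The 3 groups overlap in every gene, and OXT runs from 1.89 CPM in D5 to 782 CPM in D4.

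No gene of the 7 was called in any of the 3 comparisons. Calling a gene took a change of over 1.5-fold, up or down, and an edgeR p adjusted over all tested genes of under 0.05. In Han BB against Dorset, 0 of 7 genes were called beside 0% of all tested genes, and 0 of 7 had an unadjusted p under 0.05 beside 4.99% of all. In Han ++ against Dorset, 0 of 7 were called beside 0.00593% of all tested genes, which is 1 gene, and 0 of 7 had an unadjusted p under 0.05 beside 5.27%. In Han BB against Han ++, the counts were again 0 of 7 beside 0% called and 0 of 7 beside 1.97% at the unadjusted threshold. DESeq2 and limma voom called 0 of the 7 genes in each comparison as well. By DESeq2 0 of 7 had an unadjusted p under 0.05, and by limma voom 2 of 7, STAR and OXT, had one in each comparison with Dorset, with both genes higher in Han. The groups overlapped for all 7 genes in all 3 comparisons, whereas they did not overlap for 8.79% of all tested genes in Han BB against Dorset, for 11.1% in Han ++ against Dorset and for 9.38% in Han BB against Han ++.

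The direction of the 7 genes was mixed. In Han BB against Dorset 2 of 7 genes, STAR and OXT, had a difference above 0, beside 49.4% of all tested genes. In Han ++ against Dorset these were 3 of 7, STAR, FDXR and OXT, beside 44.1%, and in Han BB against Han ++ 4 of 7, SCARB1, STAR, FDX1 and HSD3B1, beside 53.4%. The median log2 difference of the 7 genes was -0.12, -0.13 and 0.05 in Han BB against Dorset, Han ++ against Dorset and Han BB against Han ++, beside -0.0058, -0.06 and 0.04 over all tested genes. The first and the second comparison share the Dorset ewes, so their values are not independent. A test of any difference among the 3 groups gave unadjusted p from 0.182 for FDX1 to 0.917 for CYP11A1, with adjusted p of 1.00 for each gene in edgeR.

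The intervals show which differences these ewes could still hold. In Han BB against Han ++, the comparison within 1 breed, the 95% interval of the fold ran from 0.422 to 1.45 for FDXR, from 0.828 to 3.73 for FDX1 and from 0.0572 to 6.19 for OXT. In the same comparison it ran from 0.380 to 2.83 for STAR, from 0.309 to 2.58 for CYP11A1 and from 0.489 to 2.73 for HSD3B1. For SCARB1, the interval was 0.563 to 2.32. Every interval therefore held 1, and a change of 1.5-fold in at least 1 direction lay inside each of them.

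**Figure D2:**
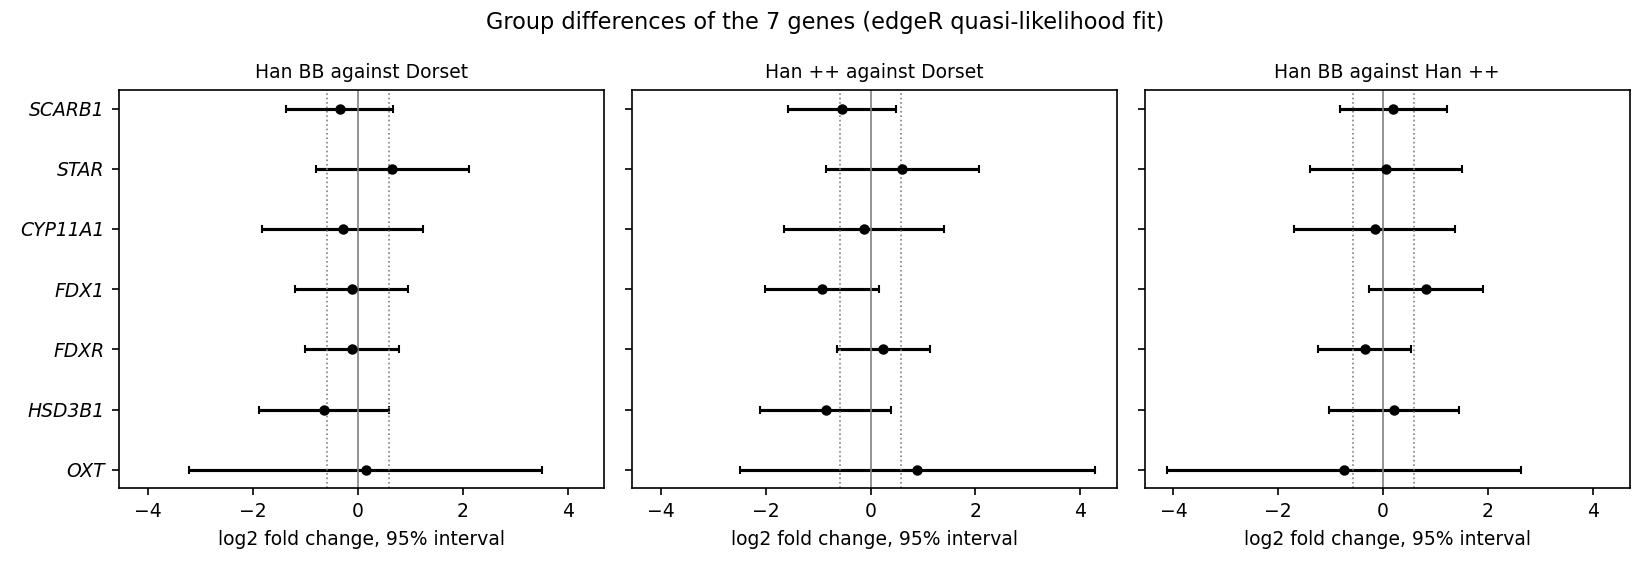
Log2 fold change of each gene in the 3 comparisons, with 95% intervals from edgeR's fit of all 9 libraries. All 21 intervals hold 0, and those of OXT are the widest.

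The 7 genes differed in how widely they spread over the ewes. OXT had a 413-fold range over the 9 ewes, STAR 10.8-fold, CYP11A1 6.70-fold and HSD3B1 6.68-fold. FDX1, SCARB1 and FDXR had ranges of 3.85-fold, 3.43-fold and 3.35-fold. The SD of log2 CPM over the 9 ewes was 3.12 for OXT, and 0.101% of all tested genes had a higher one. It was 1.12 for STAR, which 16.2% of tested genes exceeded, and 0.94 for CYP11A1, which 21.3% exceeded. FDXR was at 0.54, the same as the median over all tested genes. Counting error was small beside this, since the lowest count of any of the 7 genes, OXT in D5, was 42 reads.

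The order of the ewes differed between the genes. CYP11A1 and OXT had the same 5 ewes on top, in the order D4, W2, W8, W7 and W6, and the order of the 3 ewes was the same for both genes within Dorset, within Han BB and within Han ++. STAR was highest in W6 and W7 and was low in W8, the third ewe in CYP11A1. HSD3B1 and SCARB1 were highest in D4, FDX1 in W4 and FDXR in W8. CYP11A1 and OXT were the only pair of the 21 with the same order of ewes in 3 of 3 groups.

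Across the 9 ewes, Spearman's rho between CYP11A1 and OXT was 0.92 (exact permutation p = 0.00131, adjusted over the 21 pairs p = 0.0275). Pearson's r of log2 CPM was 0.741 (exact permutation p = 0.0215, adjusted p = 0.151), and 0.684 without D4 and W2, the ewes farthest from the median of CYP11A1. Without W4 and D6, rho was 0.96 over 7 ewes (exact permutation p = 0.00278, adjusted p = 0.0583) and r was 0.634 (exact permutation p = 0.0514, adjusted p = 0.239). The adjusted p thus passed 0.05 for the ranks over 9 ewes and in none of the other 3 tests. All genes of a library share its depth and its mix of cells, and LOC101101865 was highest in the 3 ewes with the highest CYP11A1 and OXT. W4 and D6, also among the lowest ewes in OXT, had the smallest shares of that row (0.0681% and 0.0107%). D5, lowest in OXT, held 2.15%, and W7, among the 5 highest ewes in both genes, held 0.237%. The part of this row in the relation of CYP11A1 and OXT was not tested.

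SCARB1 followed CYP11A1 with r = 0.787 (exact permutation p = 0.0156, adjusted p = 0.151) and rho = 0.75 (exact permutation p = 0.0255, adjusted p = 0.134), and r fell to 0.471 without D4 and W2. FDXR and CYP11A1 had r = 0.748 (exact permutation p = 0.0178, adjusted p = 0.151) and rho = 0.75 (exact permutation p = 0.0255, adjusted p = 0.134). STAR and CYP11A1, consecutive steps of the pathway, had r = 0.044 (exact permutation p = 0.925, adjusted p = 0.967) and rho = 0.08 (exact permutation p = 0.843, adjusted p = 0.973). Of the 21 pairs, 16 had r above 0 over 9 ewes and 19 over the 7 ewes without W4 and D6. No pair passed an adjusted p of 0.05 by Pearson's r, and 5 of 21 had an unadjusted exact permutation p under that value.

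FDX1 and FDXR, partners in electron transfer, ran against each other over the 9 ewes, with r = -0.670 (exact permutation p = 0.0465, adjusted p = 0.195) and rho = -0.25 (exact permutation p = 0.521, adjusted p = 0.781). The relation rested on W4 and D6, the ewes farthest from the median of FDX1. Over the other 7 ewes r was 0.236 (exact permutation p = 0.575, adjusted p = 0.700). W4 and D6 also stood apart over all genes, and what set these ewes apart was not tested.

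**Figure D3:**
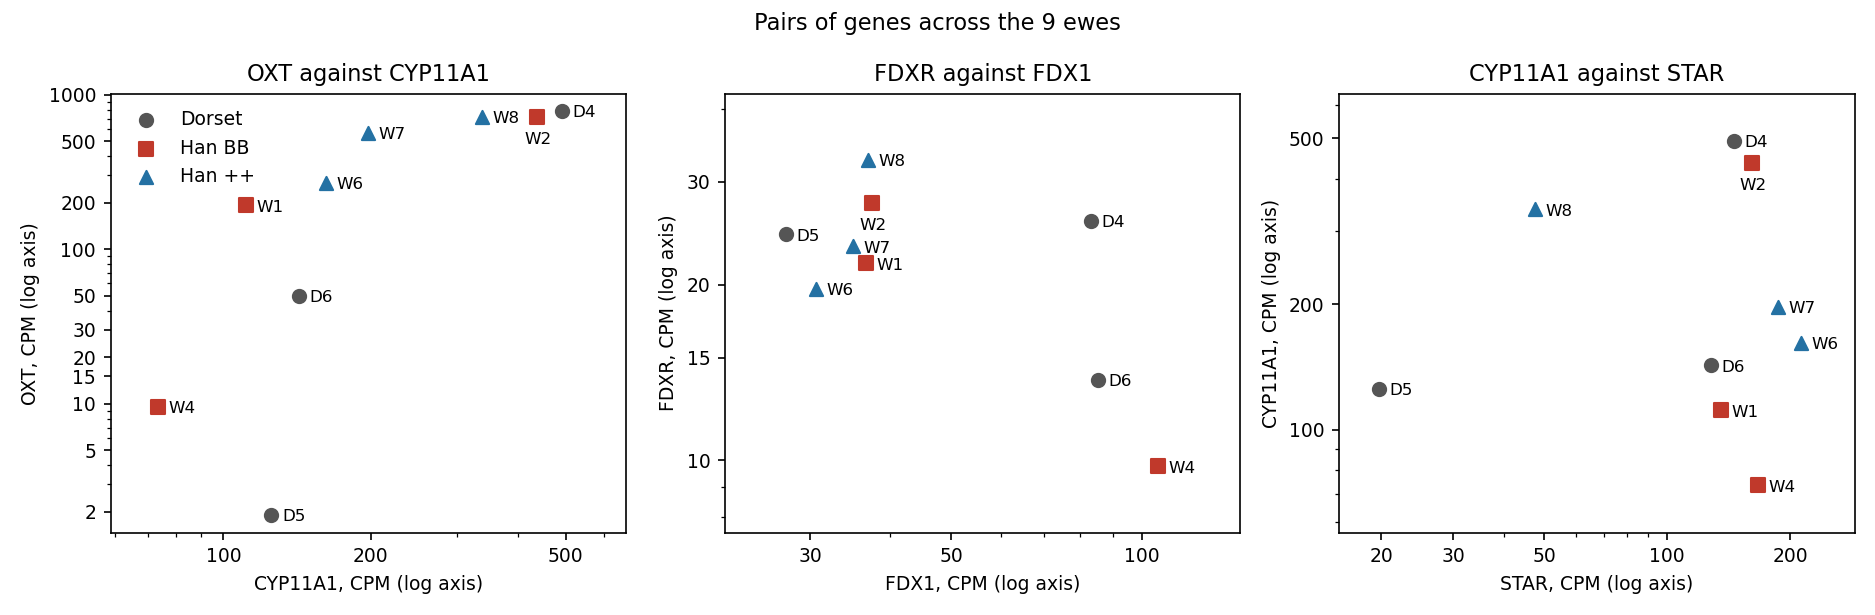
Each point is 1 ewe, with CPM on log axes, for OXT against CYP11A1, FDXR against FDX1 and CYP11A1 against STAR. D4, W2, W8, W7 and W6 hold the 5 highest values of both OXT and CYP11A1, D5 (1.89 CPM) and D6 (49.7 CPM) have less OXT than W1 at a higher CYP11A1, W4 and D6 lie apart in FDX1 and FDXR, and D5 and W8 lie low in STAR.

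**Figure D4:**
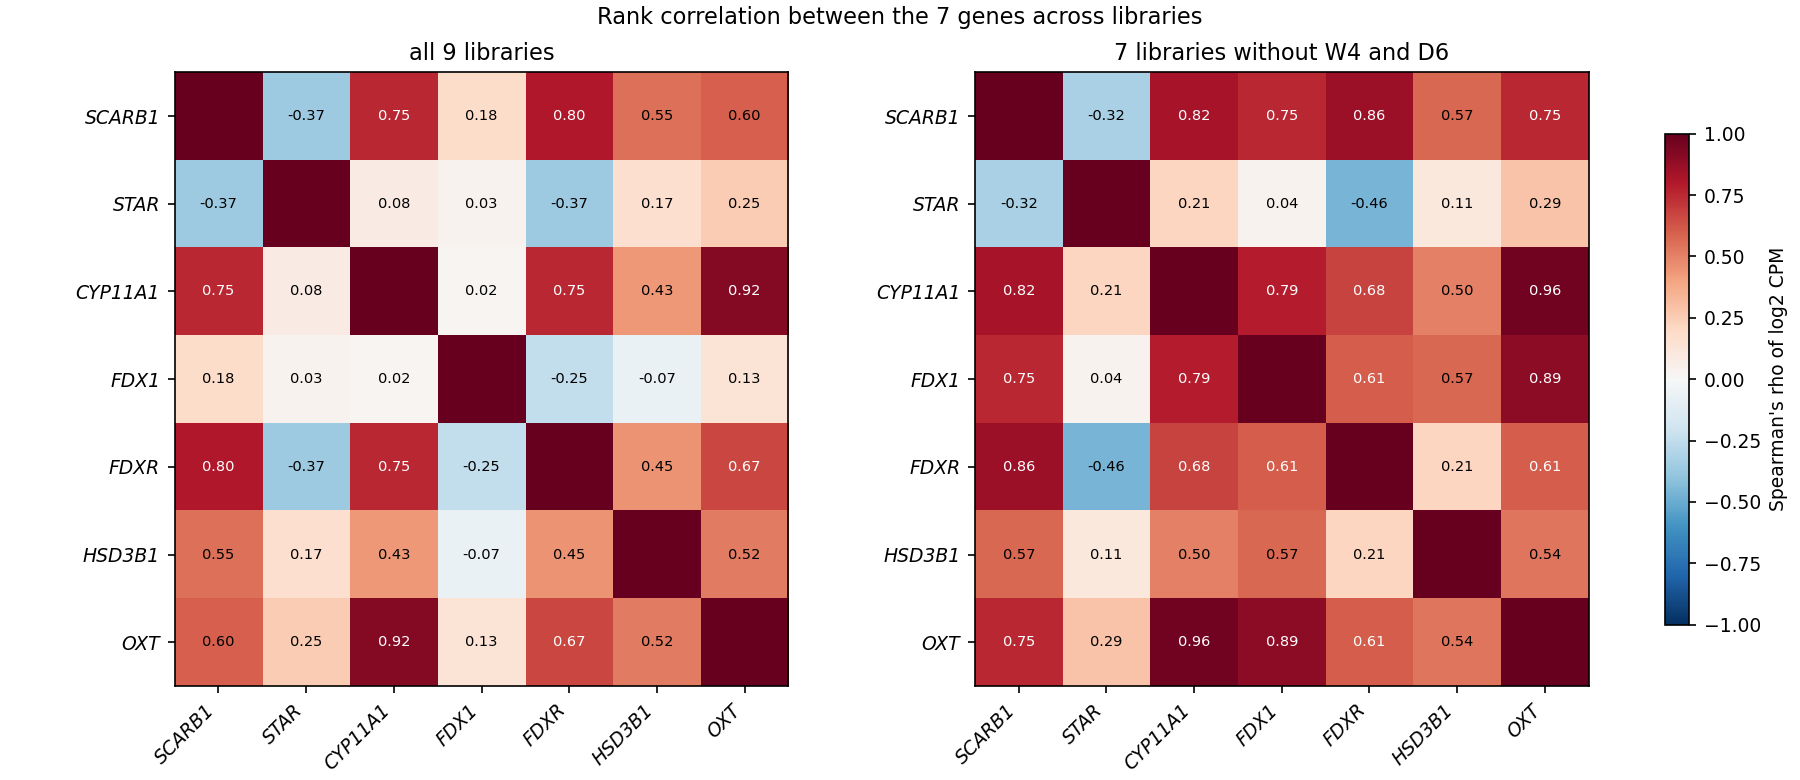
Spearman's rho between the 7 genes over 9 ewes and over 7 ewes without W4 and D6, on a colour scale from -1 to 1. The pair CYP11A1 and OXT has the highest rho in both panels (0.92 and 0.96), and FDX1 turns from negative to positive with FDXR (-0.25 and 0.61) and with HSD3B1 (-0.07 and 0.57).

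Ratios of reads within a library do not depend on its total or scaling. For every 100 reads of CYP11A1 there were 159 reads of OXT in D4, 165 in W2, 172 in W1 and 165 in W6, so 4 ewes of 3 groups with CYP11A1 between 111 and 493 CPM had nearly the same ratio. The ratio was 212 in W8 and 287 in W7. It was 34.8 in D6, 13.0 in W4 and 1.51 in D5. D5 had CYP11A1 at 125 CPM, above W1, yet its OXT was at 1.89 CPM against 192 CPM in W1. The low OXT of D5 went with a low STAR of 19.7 CPM, while its SCARB1 of 79.9 CPM was the fourth highest of the 9 ewes.

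The ratio of STAR to CYP11A1 varied in another way. There were 227 STAR reads per 100 CYP11A1 reads in W4, 131 in W6 and 121 in W1, but 29.6 in D4, 15.7 in D5 and 14.0 in W8, a 16.2-fold range. FDX1 per 100 FDXR reads was between 113 and 169 in D5, W1, W2, W6, W7 and W8. It was 324 in D4, 620 in D6 and 1085 in W4. The high FDX1 in these 3 ewes was thus not matched by FDXR. The reads of different genes also depend on transcript length, so a ratio is compared between ewes and not read as an excess of 1 transcript.

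Other genes of cholesterol supply were followed as a list, and 0 of its 19 tested genes were called by edgeR, DESeq2 or limma voom in any comparison. Over all tested genes, edgeR called 0% in Han BB against Dorset, 0.00593% in Han ++ against Dorset and 0% in Han BB against Han ++. These shares stand beside the counts of this and the following lists. In Han BB against Dorset, edgeR gave 3 of the 19 an unadjusted p under 0.05, beside 4.99% of all tested genes. Among the 3 were LRP8 with lower and ABCG1 with higher values. LRP8, a receptor for apolipoprotein E, had a log2 difference of -0.98 in Han BB (unadjusted p = 0.0366, adjusted p = 0.98, edgeR) and -0.57 in Han ++ against Dorset.

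ABCG1, which exports cholesterol, was at 26.1, 30.9 and 24.5 CPM in the Dorset ewes, below all 6 Han ewes at 31.8 to 58.4 CPM. Its log2 difference from Dorset was 0.65 in Han BB (unadjusted p = 0.0429, adjusted p = 0.98) and 0.96 in Han ++ (unadjusted p = 0.00631, adjusted p = 0.684) in edgeR's test. VDAC1, a channel of the outer mitochondrial membrane, had the highest difference of the list, 1.14 in Han BB and 1.75 in Han ++ against Dorset, on 2 to 45 reads per library. A further row of this gene, VDAC1.1, was not added, so these values may not stand for the whole gene. Of the 19 genes, 11 had a difference above 0 in Han BB against Dorset, beside 49.4% of all tested genes. In Han ++ against Dorset these were 10 of the 19, beside 44.1%.

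Among 11 tested transcription factors of steroidogenic cells, edgeR called 0 in each comparison. In both comparisons with Dorset 1 of them, NR4A1, had an unadjusted p under 0.05, beside 4.99% (Han BB) and 5.27% (Han ++) of all tested genes. NR4A1, a nuclear receptor that responds quickly to stimuli, was at 92.9, 125 and 37.9 CPM in the Dorset ewes, at 9.21, 11.1 and 18.4 CPM in the Han BB ewes and at 6.58, 11.2 and 23.1 CPM in the Han ++ ewes. The 3 Dorset ewes were above all 6 Han ewes. The log2 difference was -2.72 in Han BB against Dorset (unadjusted p = 0.000442, adjusted p = 0.749) and -2.65 in Han ++ against Dorset (unadjusted p = 0.000532, adjusted p = 0.379) in edgeR's test. NR4A1 was thus not called by edgeR on all 9 libraries, nor by limma voom, but it was called by DESeq2 in both comparisons (adjusted p = 0.00176 and 0.000773). Without W4 and D6, edgeR called it in Han ++ against Dorset (log2 difference -3.03, adjusted p = 0.0407). W4 and D6 were set apart by these same data, and D6 had the lowest NR4A1 of the Dorset ewes. The gap therefore widened when D6 was left out.

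NR5A1, a main activator of steroidogenic genes, had a log2 difference of -0.80 in Han BB (unadjusted p = 0.0512, adjusted p = 0.98, edgeR) and -0.55 in Han ++ against Dorset. The highest differences of the list were 0.72 for NR0B1, a repressor of NR5A1, and 0.16 for GATA6 in Han BB, and 0.16 for GATA6 and 0.14 for SREBF2 in Han ++. Above 0 were 2 of the 11 in Han BB and 3 of the 11 in Han ++ against Dorset, beside 49.4% and 44.1% of all tested genes.

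Of the receptors through which the corpus luteum is regulated, 9 were tested and 0 were called by edgeR, DESeq2 or limma voom. EdgeR called 0%, 0.00593% and 0% of all tested genes in Han BB against Dorset, Han ++ against Dorset and Han BB against Han ++. At an unadjusted p under 0.05 in edgeR were 0 of the 9, beside 4.99%, 5.27% and 1.97% of all tested genes in the same order. PTGFR, the receptor for the prostaglandin that ends luteal life, was at 164, 72.7 and 146 CPM in the Dorset ewes, at 125, 299 and 55.6 CPM in the Han BB ewes and at 163, 484 and 171 CPM in the Han ++ ewes. D5 and W4, the 2 ewes lowest in OXT, were also lowest in PTGFR. LHCGR, the receptor for luteinizing hormone, was at 33.9, 35.2 and 27.6 CPM in the Han BB ewes, above the Han ++ ewes at 19.6, 22.9 and 26.5 CPM, with a log2 difference of 0.49 that did not pass the test (unadjusted p = 0.104, adjusted p = 1.00, edgeR).

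The oxytocin receptor, OXTR, had between 4 and 73 reads in a library, with a log2 difference of 0.71 in Han BB against Dorset. The progesterone receptor, PGR, had differences of 0.63 in Han BB and 0.22 in Han ++ against Dorset, and PTGFR had 1.09 in Han ++. At the low end were INSR (-0.89) and AVPR1A (-0.29) in Han BB and AVPR1A (-0.88) and PGRMC2 (-0.36) in Han ++. None of these had an unadjusted p under 0.05. INSR had 2 to 38 reads per library, and a further row of this gene, INSR.1, was not added.

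Of 12 tested enzymes that act after or beside progesterone synthesis, 0 were called by edgeR, DESeq2 or limma voom. CYP17A1, which leads to androgens and marks theca cells, was at 120, 28.4 and 38.7 CPM in the Dorset ewes, at 5.55, 69.3 and 2.81 CPM in the Han BB ewes and at 6.54, 69.3 and 62.7 CPM in the Han ++ ewes. W1, W4 and W6 were thus below 10 CPM, and D4 was highest, as in CYP11A1. The log2 difference of CYP17A1 from Dorset was -1.26 in Han BB and -0.43 in Han ++, with SE of 1.11 and 1.10. HSD17B1, an enzyme of estradiol synthesis, had the only unadjusted p under 0.05 of the list in edgeR, for Han BB against Han ++ (log2 difference -2.31, unadjusted p = 0.0492, adjusted p = 1.00), and -2.19 against Dorset. It had 71, 4 and 1 reads in the Han BB ewes W1, W2 and W4, so both differences rest on counts near 0 in W2 and W4. The share of all tested genes with such a p was 1.97% in Han BB against Han ++. HSD11B2 (0.78) and SRD5A3 (0.26) in Han BB and SRD5A1 (0.66) and HSD17B12 (0.30) in Han ++ had the highest differences from Dorset, and HSD3B7 (-0.75) the lowest in Han ++.

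Oxytocin is cut from its precursor and amidated by general enzymes of peptide hormones, and 0 of 9 tested genes of this kind were called by edgeR, DESeq2 or limma voom. EdgeR called 0%, 0.00593% and 0% of all tested genes in Han BB against Dorset, Han ++ against Dorset and Han BB against Han ++. An unadjusted p under 0.05 in edgeR was found for 1 of the 9 in each comparison, beside 4.99%, 5.27% and 1.97% of all tested genes. CHGA, a granule protein, had a log2 difference of -1.38 in Han BB against Dorset (unadjusted p = 0.0251, adjusted p = 0.98, edgeR). SCG5, a chaperone of a processing enzyme, was at -0.91 in Han ++ against Dorset (unadjusted p = 0.0278, adjusted p = 0.891, edgeR). In Han BB against Han ++ it was at 0.79 (unadjusted p = 0.0490, adjusted p = 0.999, edgeR). SCG2 was at -0.61 in Han BB and -2.29 in Han ++ against Dorset on 4 to 83 reads. CPE (0.12) and CPD (0.11) in Han BB and FURIN (0.42) and CPD (0.20) in Han ++ had the highest differences. PAM, the amidating enzyme, kept between 465 and 665 CPM in all 9 ewes while OXT ranged over 413-fold. AVP, the neighbour of OXT in the reference annotation, had no row in the count table.

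Genes for iron-sulfur clusters and NADPH in mitochondria, which ferredoxin and its reductase need, formed another list. Of 10 tested, 0 were called by edgeR, DESeq2 or limma voom, and 0 had an unadjusted p under 0.05 in edgeR. Over all tested genes, edgeR called 0%, 0.00593% and 0% in Han BB against Dorset, Han ++ against Dorset and Han BB against Han ++. The shares with an unadjusted p under 0.05 were 4.99%, 5.27% and 1.97%. Differences from Dorset ran from -0.43 for IDH2 and -0.31 for HSCB to 0.22 for ME1 and 0.36 for NFS1 in Han BB. In Han ++ HSCB was at -0.32 and ME1 at 0.31.

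The tissue label was set against marker genes. Of 3 adrenal cortex markers, MC2R had between 0 and 3 reads per library and CYP21A2 had no row. CYP11B1 was listed at 0 in all 9 libraries in each of its 4 rows, but reads shared by such copies would not have mapped uniquely, so these rows do not show that the gene was silent. Of 7 granulosa markers 5 had a row, with summed levels of 134 to 256 CPM in Dorset, 74.8 to 150 CPM in Han BB and 112 to 260 CPM in Han ++, and CYP19A1 and FOXL2 had none. All 3 theca markers had a row, with sums of 63.3 to 164 CPM, 33.4 to 112 CPM and 35.3 to 106 CPM in the same order. The theca sum was highest in D4 and W2 and lowest in W4 and W6. CYP17A1 made 120 and 69.3 CPM of it in D4 and W2, and 2.81 and 6.54 CPM in W4 and W6. INSL3 had another order, with 14.1 CPM in W7 and 13.4 CPM in D5 above 10.4 CPM in D4 and 7.28 CPM in W2. Its lowest value was 3.01 CPM in W4. LHCGR was also in the list of luteal receptors. The part of theca cells in the CYP11A1 levels was not tested. HSD17B1 had 71, 4 and 1 reads in the Han BB ewes W1, W2 and W4. In Han BB against Dorset, 0 of the 5 tested granulosa markers had a difference above 0, beside 49.4% of all tested genes. Their differences ran from -2.19 for HSD17B1 and -1.41 for AMH to -0.47 for FSHR and -0.33 for INHA. In Han ++ against Dorset they ran from -0.49 for INHBA and -0.08 for AMH to 0.12 for HSD17B1 and 0.50 for INHA. Of the theca markers, INSL3 had -0.56 and 0.04 in the same comparisons.

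Of 5 markers of ciliated epithelium, the lining of the oviduct, 4 had a row, with sums of 40.8 to 144 CPM in Dorset, 58.6 to 398 CPM in Han BB and 98.6 to 209 CPM in Han ++. W4 was highest in the sum of this list, with DNAH5 at 318 CPM, and lowest in CYP11A1 and FDXR. RSPH1 (67.4 CPM) and DNAI1 (10.4 CPM) were also highest in W4. FOXJ1, a ciliated cell factor, went the other way, at 2.88 CPM in W4 and lower only in D5 (2.61 CPM). The part of ciliated cells in the results was not tested. FOXJ1 had a log2 difference of 1.70 in Han ++ against Dorset (unadjusted p = 0.000955, adjusted p = 0.448, edgeR, and adjusted p = 0.0229, DESeq2) and 0.48 in Han BB. Its difference in Han BB against Han ++ was -1.21 (unadjusted p = 0.00767, adjusted p = 0.999, edgeR). In that comparison 1.97% of all tested genes had an unadjusted p under 0.05. In Han ++ and Han BB against Dorset, DNAH5 had 1.21 and 1.46, DNAI1 0.87 and 0.93, and RSPH1 0.71 and 0.80. Sums of 4 macrophage markers were 141 to 299 CPM in Dorset, 235 to 333 CPM in Han BB and 182 to 302 CPM in Han ++. In this list CD68 had 0.75 and 0.69, CSF1R 0.24 and 0.31, and MRC1 0.05 and -0.52 in Han BB and Han ++ against Dorset.

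Endothelial sums of 4 markers were 632 to 738 CPM in Dorset, 590 to 767 CPM in Han BB and 542 to 663 CPM in Han ++, with KDR at -0.18 and -0.64, PECAM1 at 0.22 and -0.33, CDH5 at 0.12 and -0.03, and VWF at 0.16 and 0.38 in Han BB and Han ++ against Dorset. Smooth muscle sums of 5 markers were 4274 to 9713 CPM, 4585 to 7044 CPM and 5027 to 8167 CPM. In Han BB against Dorset, 2 of these 5, DES (-1.23) and CNN1 (-1.19), had an unadjusted p under 0.05 in edgeR, beside 4.99% of all tested genes. ACTG2 was at -0.33 and ACTA2 at 0.07 in that comparison. Han ++ against Dorset had CNN1 at -0.53, MYH11 at -0.49, ACTG2 at 0.0011 and ACTA2 at 0.13. Oocyte sums of 6 markers were 13.0 to 18.7 CPM, 13.1 to 21.5 CPM and 6.54 to 15.4 CPM, with ZP3 at 0.05 and -1.08, ZP4 at 0.51 and -0.83, ZP2 at 0.30 and -0.62, and GDF9 at -0.04 and -0.43. Among all marker genes, edgeR and limma voom called 0, and DESeq2 called FOXJ1. When the fit held a term that set W4 and D6 apart, edgeR called DNAH5 in Han ++ against Dorset (log2 difference 2.08, adjusted p = 0.0385). W4 and D6 were set apart by these same data. D6, at 103 CPM, was far above the Dorset ewes D4 and D5 in DNAH5, at 29.6 and 35.0 CPM. A further row of this gene, DNAH5.1, was not added.

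Genes were ranked by their mean Pearson's r of log2 CPM with STAR, CYP11A1 and HSD3B1 over the 9 libraries. These 3 genes did not share 1 pattern. Pearson's r was 0.044 for STAR and CYP11A1, 0.090 for STAR and HSD3B1 and 0.572 for CYP11A1 and HSD3B1. The first 10 genes were LOC101109047, RAB38, MGP, CSRP2, CXCR7.1, LDHA, KY, HEBP1, TMC7 and PDCD1, with a mean r between 0.652 and 0.673. MGP ran from 1473 CPM in D5 to 4376 CPM in D4, and LDHA from 96.2 CPM in D5 to 453 CPM in D4, so D4 was the highest and D5 the lowest ewe in both. The 5 genes most like OXT were QPCT (r = 0.978), IL1RN (0.963), CLC4 (0.956), KIAA1324 (0.955) and ST6GAL1.1 (0.954). QPCT, an enzyme that forms pyroglutamate at the start of peptides, was at 14.7, 0.541 and 2.62 CPM in the Dorset ewes, at 5.36, 15.8 and 0.870 CPM in the Han BB ewes and at 5.49, 6.74 and 8.93 CPM in the Han ++ ewes. The ranking was over 16871 genes and rests on few ewes, and without W4 and D6, 3 of the 10 and 0 of the 5 genes stayed in their lists.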

How the data were processed

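Ovary RNA of 9 ewes was sequenced. The authors aligned the reads to Oar_v3.1 with TopHat at default settings and kept uniquely mapped reads, and the deposited values are raw counts per gene, without normalization. How the reads were counted and with which strand setting is not given in the sources used here, and the labels and the methods name different Illumina kits, so counts of overlapping genes are uncertain. Rows with a numbered ending were not added to the gene of that name. Of the genes named from the lists, VDAC1, INSR, CPD, INHBA, INSL3, DNAH5 and CYP11B1 had such rows.

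The counts were tested in R 4.3.3 with edgeR 4.0.16 (quasi-likelihood test, TMM, filter by group, 1 fit of all 9 libraries) and Benjamini-Hochberg adjustment over 16871 genes. Calls took an adjusted p under 0.05 and a change of over 1.5-fold in either direction. DESeq2 1.42.0, limma 3.58.1 (voom with quality weights), other filters and size factors, fits of 2 groups, leaving out each library, leaving out W4 and D6, and a term for their split were alternatives. The tests were tried on simulated data. Log2 CPM used a prior count of 0.5, and pairs of genes were compared by exact permutation. Figures were drawn with matplotlib 3.10.9. Total counts were 10803913 to 20992535 per library. The 7 genes and the 14 lists were chosen with earlier results of these data known. From each list the text names the 2 tested genes with the highest and the 2 with the lowest difference of each Han group from Dorset, and, after their values were seen, LHCGR, PAM, PTGFR, MC2R and genes with a low unadjusted p. Of 128 listed symbols, 100 matched a row directly, 9 through a gene number and 4 through a former name, and 15 had no row. Names came from RefSeq's ARS-UI_Ramb_v3.0 table. That table also gave the order of OXT and AVP. Coordinates, transcript lengths and sequences were not used here. Some genes that this rule names are not reported here.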

Additional observations from a re-analysis of the deposited data

How the results depend on the processing

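The count of the 7 genes called was 0 in each comparison under all 18 alternatives. Over these alternatives, 35 of 378 values of the 7 genes turned direction, 25 of them with 1 library left out, 14 had an unadjusted p under 0.05, and the lowest adjusted p was 0.210.

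Over all tested genes, Han BB against Dorset gave 0 called genes in the reported fit, 38 with DESeq2, 2 without a filter, 2 without W4 and D6, 1 with a term for their split and 0 to 1 with 1 library left out. Han ++ against Dorset gave 1 in the reported fit, 65 with DESeq2, 0 with limma voom, 11 without a filter, 0 in a fit of 2 groups, 22 without W4 and D6, 78 with the term for their split and 0 to 5 with 1 library left out. Han BB against Han ++ gave 0 in the reported fit, 2 with DESeq2, 2 with limma voom and 0 to 0 with 1 library left out. The cause was not tested.

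The direction turned in limma voom for FDXR (0.030) and HSD3B1 (0.024) in Han BB against Dorset and for CYP11A1 (0.24) in Han ++ against Dorset. With the term for the split it turned for OXT in Han BB against Dorset (-0.57), for FDXR (-0.072) and OXT (-0.049) in Han ++ against Dorset, and for STAR (-0.085) and CYP11A1 (0.12) in Han BB against Han ++. Without W4 and D6 the last 2 were -0.027 and 0.23. With 1 library left out, log2 differences of Han BB against Dorset ran from -0.91 to 0.0099 for SCARB1, -1.44 to 0.62 for CYP11A1, -0.83 to 0.17 for FDX1, -0.42 to 0.20 for FDXR, -1.05 to 0.45 for HSD3B1 and -1.44 to 3.57 for OXT. They ran from -0.44 to 0.79 for CYP11A1 and -1.27 to 0.24 for HSD3B1 in Han ++ against Dorset, and from -0.37 to 0.51 for SCARB1, -0.38 to 0.41 for STAR and -1.32 to 0.24 for CYP11A1 in Han BB against Han ++. The other 10 differences kept their direction with 1 library left out, and ran from 0.18 to 1.06 for STAR in Han BB against Dorset. In Han ++ against Dorset they ran from -0.84 to -0.19 for SCARB1, 0.13 to 1.07 for STAR, -1.30 to -0.68 for FDX1, 0.0043 to 0.39 for FDXR and 0.33 to 4.32 for OXT, and in Han BB against Han ++ from 0.11 to 1.08 for FDX1, -0.66 to -0.034 for FDXR, 0.062 to 0.51 for HSD3B1 and -2.35 to -0.18 for OXT. Of the 21 pairs, 3 turned direction without W4 and D6, with Pearson's r of 0.684 for CYP11A1 and FDX1, 0.236 for FDX1 and FDXR and 0.510 for FDX1 and OXT.

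No paired analysis was possible because the labels give each ewe a code that names an animal, and no replicate number, litter, batch or day that would pair ewes of different groups. Each of the 7 genes had at least 42 reads in every library, so counting error was small beside the spread between the 3 ewes of a group.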
